A study of Homo sapiens with 16 samples.

Results

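The effect of enzalutamide, an antiandrogen, on the chromatin mark H3K27me3 was read from 4 of the 16 CUT&RUN samples of the series, chosen by antibody and treatment. CUT&RUN releases the fragments around an antibody target with a tethered nuclease. All cells were LNCaP, an established androgen-dependent prostate carcinoma line, and carried either a control guide (sgControl, written sgC) or sgPRKCI, a guide directed at the gene that encodes atypical protein kinase C iota. The libraries were sgC enzalutamide and sgPRKCI enzalutamide, treated at 10 µM for 72 h and called ENZA here, and sgC DMSO and sgPRKCI DMSO, given the solvent for 72 h. The labels do not say how the guides act on PRKCI or whether the lines are clones or pools, and no value here checks the loss of PRKCI: its gene had no H3K27me3 peak in any of the 4 libraries and had H3K4me3 in the H3K4me3 library of all 4 conditions. Each condition gave 1 library, so ENZA was set against DMSO within each guide, and the agreement of the guides, which share no library, took the place of replicates.

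H3K27me3 is written by Polycomb repressive complex 2 (PRC2), whose catalytic subunit is usually EZH2. The mark forms sharp blankets over silent developmental genes with CpG-rich promoters and also broad, low domains over silent intergenic and heterochromatic sequence. It is read and bound by Polycomb repressive complex 1 and is generally absent from transcribed genes. In prostate cancer EZH2 is known as a Polycomb silencer and has also been found at active genes.

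The cells matched their label. Of 10 luminal prostate markers, 9 had H3K4me3, a mark of active promoters, in all 4 conditions, and KLK2, an androgen-driven kallikrein protease, had it in 3. All 10, among them KLK3, which encodes prostate-specific antigen, had no H3K27me3 cover in any library. Of 18 markers of blood, liver, muscle, neuron, fibroblast and endothelium, 14 had no H3K4me3 in any condition. COL1A1, SYP and VIM had it in all 4 conditions and SNAP25 in 1.

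The promoters below belong to the genes of at least 5 kb whose cover differed most with ENZA in both guides, the first 3 on the higher and the first 3 on the lower side. They were chosen by that ranking and not by sequence, and all but 1 turned out to be poor in CpG. Each runs 5′ to 3′ from 250 bases before to 50 after the start that the RefSeq promoter table gives (GRCh38.p14), with CG dinucleotides in capitals. ATP6V1G3 (chr1:198540896-198541195, minus strand), a kidney-type subunit of the vacuolar proton pump, NR1H4 (chr12:100503110-100503409, plus strand), the bile acid receptor FXR, and SERPINA7 (chrX:106038678-106038977, minus strand), thyroxine-binding globulin, were covered more with ENZA in the lists as deposited. The start given for NR1H4, and that for MRGPRX1 below, lies inside the gene body used for cover.
ATP6V1G3: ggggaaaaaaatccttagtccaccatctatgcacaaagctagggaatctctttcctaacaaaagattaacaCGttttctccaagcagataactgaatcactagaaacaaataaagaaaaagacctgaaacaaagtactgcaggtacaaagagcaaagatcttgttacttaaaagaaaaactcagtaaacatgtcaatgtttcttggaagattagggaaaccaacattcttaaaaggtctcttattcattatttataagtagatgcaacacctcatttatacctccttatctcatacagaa
NR1H4: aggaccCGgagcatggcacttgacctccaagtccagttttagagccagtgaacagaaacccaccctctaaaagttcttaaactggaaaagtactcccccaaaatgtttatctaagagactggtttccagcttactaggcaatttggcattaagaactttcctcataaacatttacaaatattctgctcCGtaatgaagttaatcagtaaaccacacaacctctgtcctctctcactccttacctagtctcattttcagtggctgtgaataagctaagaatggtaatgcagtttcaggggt
SERPINA7: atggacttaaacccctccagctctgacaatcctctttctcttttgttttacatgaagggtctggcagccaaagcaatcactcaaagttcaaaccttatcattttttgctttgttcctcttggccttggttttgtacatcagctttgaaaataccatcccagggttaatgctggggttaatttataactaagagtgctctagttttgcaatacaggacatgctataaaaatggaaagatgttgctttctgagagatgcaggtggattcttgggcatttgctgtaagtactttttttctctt
MRGPRX1 (chr11:18934953-18935252, minus strand), an itch and pain receptor of sensory neurons, LOC102723971 (chr9:135613933-135614232, plus strand), known only by its identifier, and OR2Z1 (chr19:8721384-8721683, plus strand), an olfactory receptor, were covered less.
MRGPRX1: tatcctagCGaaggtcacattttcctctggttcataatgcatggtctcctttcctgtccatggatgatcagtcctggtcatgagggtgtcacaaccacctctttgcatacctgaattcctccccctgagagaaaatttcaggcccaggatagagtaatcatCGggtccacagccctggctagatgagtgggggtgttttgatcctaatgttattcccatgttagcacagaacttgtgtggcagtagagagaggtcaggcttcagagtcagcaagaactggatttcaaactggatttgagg
LOC102723971: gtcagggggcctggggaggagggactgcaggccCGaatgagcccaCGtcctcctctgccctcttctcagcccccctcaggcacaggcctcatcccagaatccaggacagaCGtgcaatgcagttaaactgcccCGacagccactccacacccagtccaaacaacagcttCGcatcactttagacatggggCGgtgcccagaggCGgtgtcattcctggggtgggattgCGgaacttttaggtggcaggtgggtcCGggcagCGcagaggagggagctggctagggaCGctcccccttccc
OR2Z1: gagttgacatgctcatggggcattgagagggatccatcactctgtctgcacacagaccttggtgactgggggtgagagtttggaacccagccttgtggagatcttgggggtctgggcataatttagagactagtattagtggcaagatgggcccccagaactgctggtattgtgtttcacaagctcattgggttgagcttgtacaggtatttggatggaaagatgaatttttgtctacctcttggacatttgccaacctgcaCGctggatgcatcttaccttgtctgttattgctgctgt
The CG counts of the first set were 1 for ATP6V1G3, 2 for NR1H4 and 0 for SERPINA7, and those of the second were 2 for MRGPRX1, 11 for LOC102723971 and 1 for OR2Z1. The median over all 15842 protein-coding promoters was 22, and over the promoters of the genes tested for cover it was 16.

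Peaks covered more of the genome with ENZA in both guides, and the peaks were wider. Cover was 290 Mb in sgC ENZA and 249 Mb in sgPRKCI ENZA, against 192 Mb in sgC DMSO and 232 Mb in sgPRKCI DMSO. The ENZA values lay above both DMSO values, and the gain was 97.9 Mb in sgC (1.51 times) and 17 Mb in sgPRKCI (1.07 times). Peaks were not more numerous: there were 98809 and 78855 with ENZA, against 100414 and 98353 with DMSO in the same order of guides. The median peak width was 1311 bp in sgC ENZA and 1378 bp in sgPRKCI ENZA, against 841 bp in sgC DMSO and 950 bp in sgPRKCI DMSO. Peaks of 10 kb or more numbered 5567 and 5058 with ENZA and 2769 and 4112 with DMSO, while peaks under 1 kb numbered 40853 and 31476 with ENZA and 56230 and 50798 with DMSO.

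**Figure D1:**
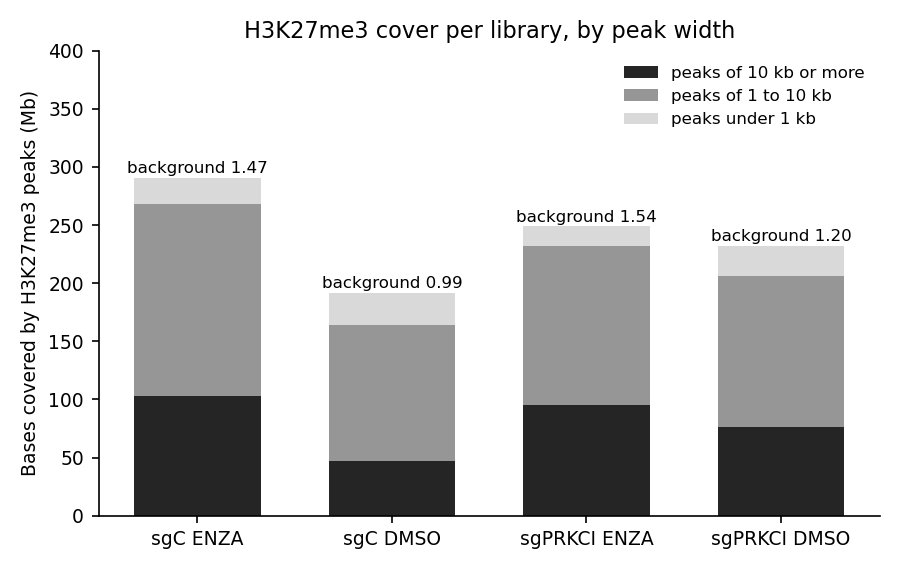
Megabases covered by H3K27me3 peaks in each library, stacked by peak width, with the recovered background coverage in fragments per base above each bar (1 library per bar, no error bar). Long peaks held 103 and 95.6 Mb in the ENZA libraries of sgC and sgPRKCI, against 46.8 and 76.5 Mb in the DMSO libraries.

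The recovered background coverage, an approximate measure of depth, moved with the drug. The background coverage that the peak caller used, in fragments per base, was recovered from the deposited fold enrichments and p-values as 1.47 in sgC ENZA and 1.54 in sgPRKCI ENZA, against 0.99 in sgC DMSO and 1.2 in sgPRKCI DMSO. Its ratio of ENZA to DMSO was 1.48 in sgC and 1.28 in sgPRKCI, beside cover ratios of 1.51 and 1.07. A deeper library lets the caller find weaker and wider peaks, so depth and treatment cannot be told apart in any total. In bulk libraries, marking in more cells and more of the mark per cell cannot be told apart either. For that reason values are also given with every library trimmed, from its weakest peaks, to the 192 Mb of the smallest (equal cover). The smallest, sgC DMSO, kept its whole list, while the others lost whole weak peaks. Equal cover therefore does not equalize peak number or width. Among peaks touching 1 peak of the other treatment, the median width there was 3198 bp in sgC ENZA and 1670 bp in sgC DMSO. In sgPRKCI it was 4078 bp with ENZA and 3310 bp with DMSO. The make-up of the domains called, promoter CpG and the gene surroundings rest on the lists as deposited.

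The chromosomes that held the added cover were alike in both guides. Of 24 chromosomes, 18 had more cover with ENZA in both guides and 0 had less in both, which at equal cover became 11 with more and 12 with less. Chromosomes 16, 17, 19, 20, 22 and Y had more cover in sgC and less in sgPRKCI. Chromosome 4 held 15.6 and 12.4 Mb in sgC and sgPRKCI ENZA, against 7.27 and 9.03 Mb in sgC and sgPRKCI DMSO, the 2 ENZA values lying above both DMSO values. Chromosome 19, the densest in genes at 24.8 protein-coding genes per Mb, held 4.99 and 4.74 Mb with ENZA, against 4.53 and 5.96 Mb with DMSO.

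Taken as a share of each library's own cover, H3K27me3 lay more on gene-poor and less on gene-rich chromosomes with ENZA. The 8 chromosomes richest in genes (1, 11, 12, 16, 17, 19, 20 and 22) held 30.9% of the cover in sgC ENZA and 31.3% in sgPRKCI ENZA, against 35.2% in sgC DMSO and 34.9% in sgPRKCI DMSO. The 8 poorest (2, 4, 5, 8, 13, 18, 21 and Y) held 33.4% and 33.0% with ENZA, against 29.8% and 30.8% with DMSO. In neither class did the ENZA and DMSO libraries overlap. At equal cover the difference on the gene-rich chromosomes was -2.52 percentage points in sgC and -4.24 in sgPRKCI, beside -4.31 and -3.66 as deposited. Over the 24 chromosomes the differences in share correlated between the guides with Pearson's r of 0.89 and Spearman's rho of 0.93, and with gene density at a rho of -0.66 in sgC and -0.6 in sgPRKCI. These describe chromosomes that share the same 4 libraries, their depth and 1 peak caller. In the H3K4me3 libraries of the same conditions the share on the gene-rich chromosomes differed by -1.24 points in sgC and -1.0 in sgPRKCI, and in the EZH2 libraries by -2.99 and 3.68.

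**Figure D2:**
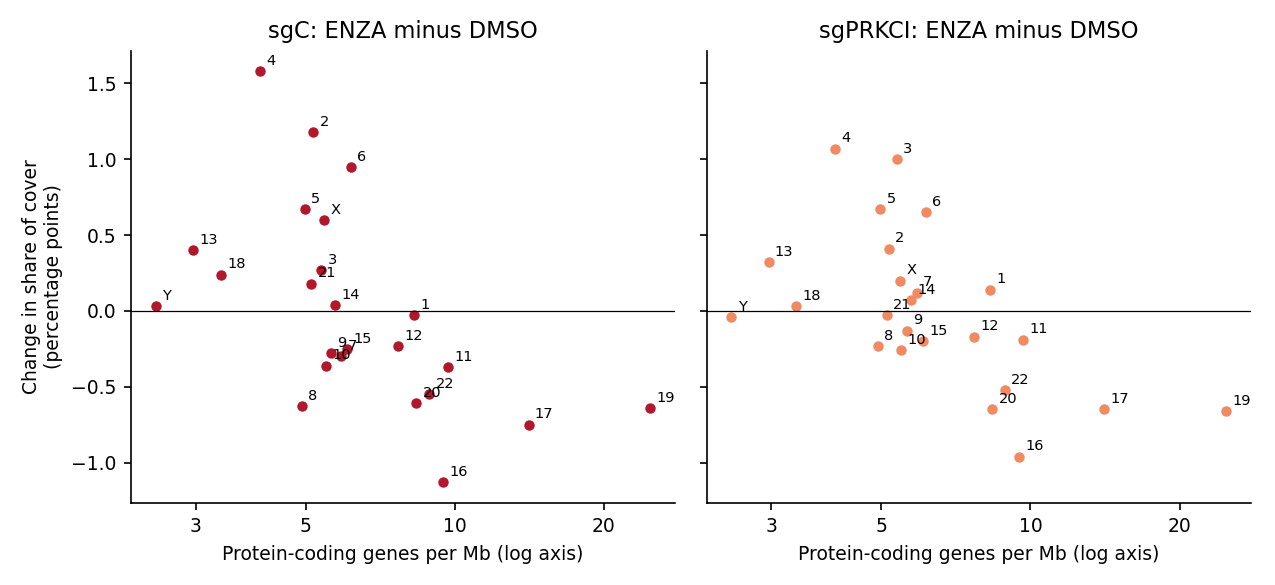
ENZA minus DMSO difference in each chromosome's share of H3K27me3 cover (percentage points) against protein-coding genes per Mb (log axis), 1 panel per guide and 1 point per chromosome, without error bars. Chromosome 4 lies at 1.58 in sgC and 1.07 in sgPRKCI, and chromosomes 16, 17, 19, 20 and 22 lie below 0 in both.

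The same gradient appeared at a finer scale. In 1 Mb bins without a protein-coding gene (n = 329), mean cover was 10.1% of the bin in sgC ENZA and 8.99% in sgPRKCI ENZA, against 5.26% in sgC DMSO and 6.65% in sgPRKCI DMSO. In bins with more than 15 genes (n = 317) it was 7.12% and 6.52% with ENZA, against 5.96% and 7.68% with DMSO, so that here the guides went opposite ways. The share of bins with more cover in both guides was 74.8% without a gene, 67.2% with 1 to 5 genes, 41.5% with 6 to 15 and 16.4% with more than 15. At equal cover these shares were 44.8%, 43.0%, 22.8% and 7.40%, while the shares with less cover in both guides were 21.6%, 27.4%, 43.4% and 64.6%. Over all 2779 bins the 2 guides' differences correlated with an r of 0.67, again a description of bins that share libraries and depth.

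**Figure D3:**
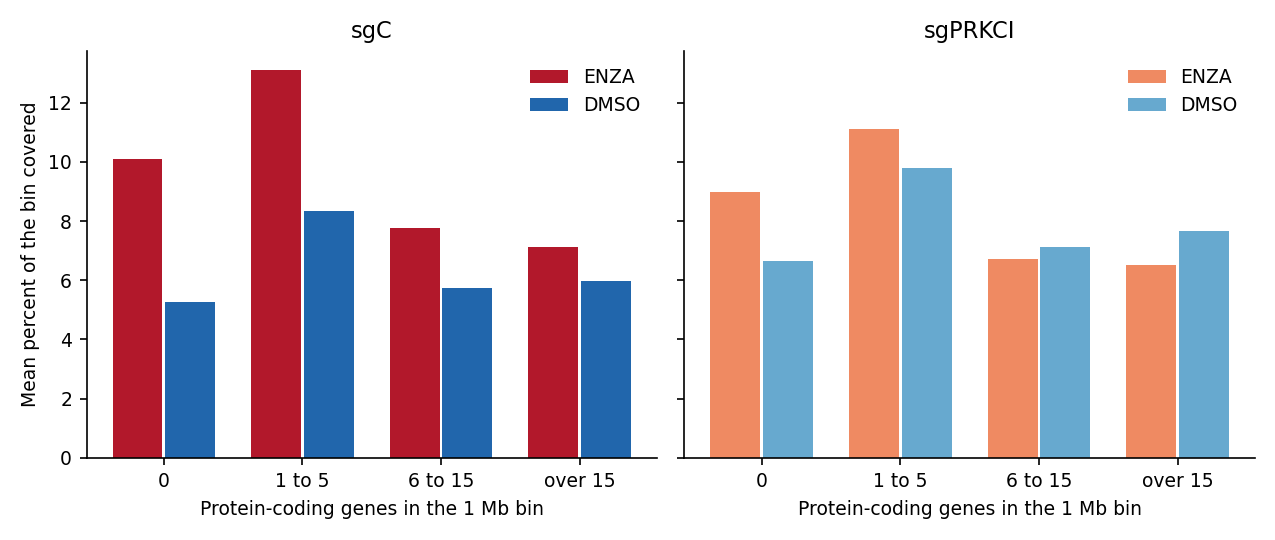
Mean percent of a 1 Mb bin covered by H3K27me3 peaks, by the number of protein-coding genes in the bin, ENZA beside DMSO in each guide (1 library per bar). In bins with more than 15 genes the bars are 7.12 and 5.96 in sgC and 6.52 and 7.68 in sgPRKCI.

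Gene deserts, taken as stretches of at least 500 kb without a protein-coding gene, number 719 and make up 32.8% of the sequence between the first and last gene of the chromosomes, assembly gaps and centromeres included. They were covered to 9.25% in sgC ENZA and 8.06% in sgPRKCI ENZA, against 5.45% in sgC DMSO and 6.69% in sgPRKCI DMSO. Sequence within 5 kb of a gene was covered to 9.32% and 8.38% with ENZA, against 7.08% and 8.61% with DMSO, and gene bodies to 9.39% and 7.99%, against 6.46% and 7.65%. The other intergenic sequence was covered to 10.0% and 8.57%, against 6.99% and 8.68%. Of these 4 classes, deserts and gene bodies had both ENZA values above both DMSO values, and in the other 2 classes the groups overlapped. At equal cover deserts were covered to 5.55% in sgC ENZA and 5.94% in sgPRKCI ENZA, against 5.45% in sgC DMSO and 5.30% in sgPRKCI DMSO. Gene bodies were covered to 6.51% and 6.32% with ENZA at equal cover, against 6.46% and 6.44% with DMSO, so there the groups overlapped, while in deserts both ENZA values stayed above both DMSO values. Of the bases covered with ENZA and not with DMSO of the same guide (added), 37.1% in sgC and 40.8% in sgPRKCI lay in deserts. Of the bases covered with DMSO and not with ENZA (lost), 31.8% and 29.2% did.

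Most added bases lay beside cover that the DMSO library already had. Within 1 kb of DMSO cover stood 55.8% of the added bases in sgC and 61.1% in sgPRKCI, where 5.72% and 5.76% of the uncovered sequence lay. Farther than 50 kb stood 3.31% and 2.92% of the added bases, beside 57.0% and 54.2% of the uncovered sequence. Lost bases were also near the remaining cover, with 67.9% in sgC and 58.1% in sgPRKCI within 1 kb. At equal cover 74.8% of the added bases in sgC and 44.3% in sgPRKCI were within 1 kb, against 18.5% and 29.9% of the lost bases. With peaks kept at a −log10 q of at least 2, or at a fold enrichment of at least 3.5, the mean share of added bases within 1 kb was 37.9% or 25.7%, in place of 58.5%. Peaks were also joined: stretches that closed a gap between DMSO peaks held 25.1% of the added bases in sgC and 25.2% in sgPRKCI, whereas stretches that opened a gap held 11.3% and 13.7% of the lost bases. At equal cover these shares were 44.2% and 19.4% of the added bases, against 2.14% and 6.34% of the lost bases. That setting keeps wider peaks with ENZA than with DMSO, and the part of peak width in these shares was not tested. Stretches at a single edge held 41.4% and 44.1% of the added bases, and those touching no DMSO peak 33.6% and 30.7%. In sgC 15987 ENZA peaks (16.2%) each touched at least 2 DMSO peaks, against 2886 DMSO peaks (2.87%) that each touched at least 2 ENZA peaks. In sgPRKCI these were 10920 ENZA peaks (13.8%) against 5146 DMSO peaks (5.23%).

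Added cover that both guides shared came to 28.4 Mb, bases covered in both ENZA libraries and in neither DMSO library. The reverse came to 6.22 Mb. The shared added bases were 21.9% of the added bases of sgC and 37.7% of those of sgPRKCI, and the shared lost bases 19.6% of the lost bases of sgC and 10.7% of those of sgPRKCI. Bases that went opposite ways in the guides came to 15.8 Mb. At equal cover the shared added and shared lost bases came to 13.8 and 11.5 Mb, so the excess of added over lost was 1.21-fold there and 4.56-fold as deposited. Deserts held 41.4% of the shared added bases and 28.8% of the shared lost bases. The other targets were rare at shared added and at shared lost bases. The EZH2 lists held 15373 peaks in sgC ENZA and 24551 in sgPRKCI ENZA, against 11452 in sgC DMSO and 6182 in sgPRKCI DMSO. EZH2 shares with ENZA and with DMSO thus come from lists of unlike length, and the part of that length was not tested. Of 7380 shared added stretches of 1 kb or more, 2.28% and 0.149% overlapped an EZH2 peak in sgC and sgPRKCI ENZA, against 0.434% and 0.149% in sgC and sgPRKCI DMSO. Of the 26145 stretches covered in all 4 libraries, 25.1% and 16.1% did with ENZA, against 14.8% and 9.61% with DMSO. Of the 772 shared lost stretches, 0.648% and 0.389% did with ENZA, against 0.648% and 0.518% with DMSO. H3K4me3 overlapped at most 0.163% of the shared added stretches and 0% of the shared lost stretches in any condition. At equal cover EZH2 overlapped 3.6% and 0.245% of 4496 shared added stretches with ENZA, against 0.667% and 0.245% with DMSO, and 2.28% and 0.355% of 3376 shared lost stretches, against 1.51% and 0.533%.

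Among domains, a single direction dominated the calls. Domains were drawn from the 4 libraries together, by joining peaks across gaps of up to 5 kb and keeping spans of at least 10 kb, which gave 13142. The median domain was covered to 49.1% in sgC ENZA and 40.1% in sgPRKCI ENZA, against 26.7% in sgC DMSO and 34.9% in sgPRKCI DMSO. Limma, with the guide as a block and Benjamini-Hochberg adjustment over all domains, called 793 higher with ENZA (6.03%) and 7 lower (0.0533%) at an adjusted p under 0.05. With 1 residual degree of freedom per domain, the error was the spread between the guides pooled over all domains, and without the guide as a block the same test called 0 and 0, with 1728 and 28 at an unadjusted p under 0.05. At equal cover it called 774 higher and 163 lower, with gaps of up to 20 kb joined 302 and 3, and among peaks with a fold enrichment of at least 3.5 it called 315 and 17. Of the 793, 357 held a domain called higher at equal cover. By size alone, 3839 domains (29.2%) were higher by at least 10 points in both guides and 270 (2.05%) lower, and at equal cover 1901 and 1538.

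The domains that rose were thinly covered with DMSO and lay mostly outside genes, 477 of the 793 (60.2%) being free of them, beside 53.0% of all domains. The median of the 793 was covered to 67.5% and 63.6% with ENZA, against 12.3% and 16.9% with DMSO in sgC and sgPRKCI, values that the call itself selects. Of them, 791 had the same sign in both guides, beside 8061 of all 13142 domains, which the call selects as well. No cover in either DMSO library was found in 34 of them, beside 204 of all domains. Over all domains, 22 had no cover in either ENZA library. Domains free of protein-coding genes were called higher in 6.85% of cases and domains touching a gene in 5.12%, and the shares were 7.72% on the 8 gene-poor and 4.04% on the 8 gene-rich chromosomes. Domains of 10 to 25 kb were called higher in 6.59% of cases and those of 100 kb or more in 2.76%. An EZH2 peak lay in 18.8% of the domains that rose in sgC ENZA and 8.95% in sgPRKCI ENZA, against 7.82% in sgC DMSO and 3.66% in sgPRKCI DMSO. Over all domains these shares were 30.3% and 19.1% with ENZA, against 19.9% and 12.8% with DMSO. The EZH2 lists were longer with ENZA in both guides, and the part of list length in these shares was not tested.

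Individual domains show how far the change went. On chromosome 4 a domain at chr4:166472213-166482540 (GRCh38), 250844 bp from SPOCK3, was covered to 83.7% in sgC ENZA and 100% in sgPRKCI ENZA, against 0% in sgC DMSO and 17.2% in sgPRKCI DMSO, a difference of 83.2 ± 13.0 points (SE, limma adjusted p = 1.14e-06). A second at chr4:103758059-103776156, 38074 bp from TACR3, the neurokinin B receptor gene, was covered to 78.1% and 74.1% with ENZA and to 0% in both DMSO libraries. Overlapping the far end of TENT5D, a poly(A) polymerase gene, chrX:80444385-80454740 was covered to 92.0% and 100% with ENZA, against 12.9% and 19.2% with DMSO. The desert domain chr6:91709116-91721990, 922268 bp from any protein-coding gene, was covered to 73.4% and 92.8% with ENZA and to 0% in both DMSO libraries. In these 4 domains both ENZA libraries stood above both DMSO libraries, and no EZH2 peak lay in them in any condition. The domains with 0% in both DMSO libraries were drawn from ENZA peaks alone. All domains named here were picked for the largest shared difference, so the lack of overlap follows from the choice. The p-values given are likewise those of domains picked by size. The 4 domains with the largest falls went the other way with no overlap, again by the choice. The intergenic domain chr16:8245598-8263230 was covered to 1.71% in sgC ENZA and 4.79% in sgPRKCI ENZA, against 56.7% in sgC DMSO and 82.0% in sgPRKCI DMSO (difference -66.1 ± 13.4 points, limma adjusted p = 0.000332). Inside PLOD2, a lysyl hydroxylase gene of collagen cross-linking, chr3:146092725-146106375 was covered to 8.25% and 0% with ENZA, against 45.1% and 45.7% with DMSO. Domains on chromosomes 8 and 20 were covered to between 6.52% and 13.3% with ENZA, against 42.3% to 67% with DMSO.

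No gene passed limma with the settings used for domains, but the fits were of unlike strength. Limma's prior degrees of freedom, the weight given to the error pooled over all features, were infinite for domains and 1.23 for genes. A difference with the same ratio to its SE therefore counts for less in a gene than in a domain. The 0 genes beside 793 domains thus do not show that genes changed less. Of 20033 protein-coding genes, 14227 had no H3K27me3 cover in any library, and 4560 had a mean cover of at least 500 bp and were tested. Limma with the guide as a block called 0 higher and 0 lower (0% each), with 250 higher and 51 lower at an unadjusted p under 0.05 and a lowest adjusted p of 0.697. By size, 303 genes (6.64%) had at least 10 points more of the gene body covered with ENZA in both guides and 66 (1.45%) at least 10 points less. In sgC alone 1137 genes (24.9%) were higher by 10 points or more and 128 (2.81%) lower, and in sgPRKCI alone 408 (8.95%) were higher and 594 (13.0%) lower. Of all these, 147 (3.22%) were higher in sgC and lower in sgPRKCI, and 13 (0.285%) the reverse. At equal cover 143 were higher and 198 lower in both guides, so the balance of gene gains and losses turned with the cover compared. The 2 guides' differences correlated over the 4560 genes with an r of 0.33.

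**Figure D4:**
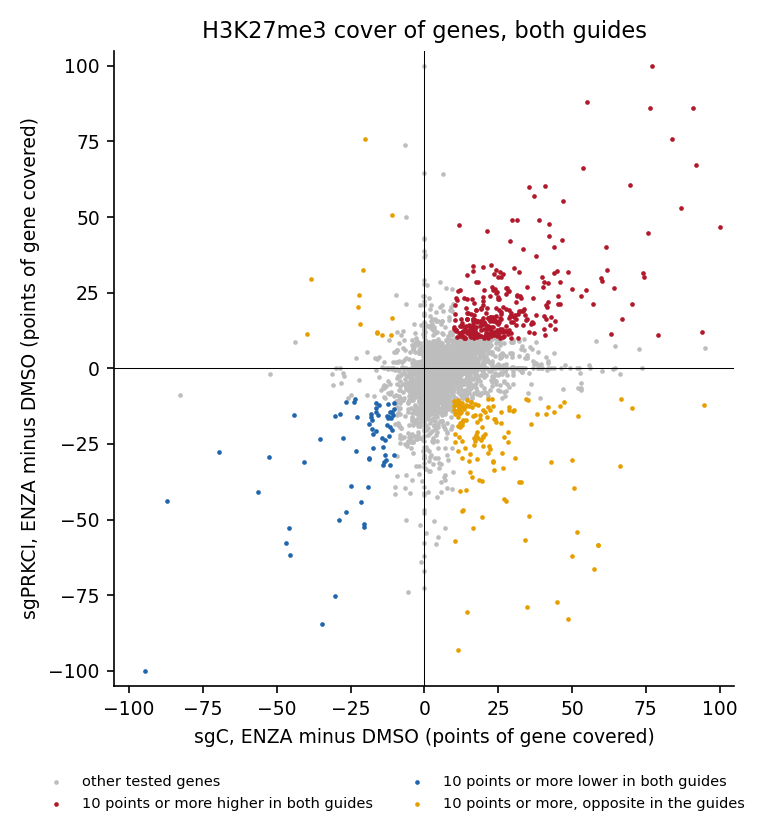
ENZA minus DMSO difference in the percent of each tested gene body covered, sgC on the x axis and sgPRKCI on the y axis (4560 genes, 1 point each, in percentage points). The upper right holds the 303 genes higher by 10 points or more in both guides, the lower left the 66 lower in both.

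Genes with more and with less cover in both guides differed in length and surroundings. Those with more were 35.7 kb long at the median and had 4 other protein-coding genes within 500 kb, beside 7.45 kb and 29 for those with less and 51.5 kb and 8 for all genes tested. The 8 gene-rich chromosomes held 27.7% of the first and 80.3% of the second, beside 40.4% of all tested, and 21 of the 66 lay on chromosome 19. Median promoter CpG was 9.5 and 7, beside 16 for all tested. Percent cover is coarser in a short gene, since a single peak can span it, and the part of length in these differences was not tested. The perfect palindromic androgen response element, which reads the same on both strands, was in 0 of the 236 and 46 promoters of these genes that RefSeq gives. It was in 0% of all 15842 promoters, a window of 300 bases each. With the element in no promoter at all, the search could not tell these genes from others, and no conclusion is drawn from it.

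Among genes of at least 5 kb, 7 of the 8 with the largest shared gains had no H3K4me3 peak within 1 kb of the gene in any condition. The share of all tested genes on that measure was not counted. At the start, a different window, 30.5% of the genes with a shared gain had H3K4me3 in some condition, counted over genes with a RefSeq start. For all tested genes this was 34.6%, so as a class the genes with a shared gain lay close to all tested. ATP6V1G3 (chr1:198523222-198540945) was covered to 91.2% in sgC ENZA and 73.5% in sgPRKCI ENZA, against 21.4% in sgC DMSO and 13.0% in sgPRKCI DMSO (difference 65.1 ± 7.40 points, SE, limma adjusted p = 0.697). NR1H4 (chr12:100473866-100564414) was covered to 57.6% and 61.5% with ENZA, against 15.4% and 17.9% with DMSO. SERPINA7 (chrX:106032435-106038727) was covered to 85.7% and 86.8% with ENZA, against 43.5% and 39.1% with DMSO. Across these 3 genes the ENZA libraries stood well above the DMSO libraries, and none had an H3K4me3 or EZH2 peak within 1 kb of the gene in any condition. KERA, the cornea proteoglycan keratocan, had 50.2% and 85.5% covered with ENZA, against 9.19% and 25.1% with DMSO. GABRA6, a GABA-A receptor subunit of the cerebellum, had 71.9% and 73.6%, against 36.6% and 13.4%. ALB, serum albumin of the liver, had 85.3% and 70.2%, against 51.9% and 30.8%. In these 3 genes, too, both ENZA values lay above both DMSO values. The oocyte linker histone gene H1-8 was almost wholly covered with ENZA, at 100% and 99.0%, against 55.1% and 66.7% with DMSO. GPR37, a brain G protein-coupled receptor, stood apart in carrying H3K4me3 in all 4 conditions and EZH2 in 3, with 53.0% and 41.9% covered with ENZA, against 9.1% and 1.68% with DMSO. At equal cover SERPINA7 went opposite ways in the guides, by -43.5 points in sgC and 47.7 in sgPRKCI, with a mean difference of 2.09 in place of 44.9. KERA also differed in sign there, by -9.19 points in sgC and 84.6 in sgPRKCI, and ATP6V1G3 differed by 6.66 and 72.6. The other 5 were higher in both guides at equal cover, with means of 21.1 points for GPR37 (42.0 as deposited), 30.7 for ALB, 38.7 for NR1H4, 38.6 for H1-8 and 51.6 for GABRA6. Among peaks with a fold enrichment of at least 3.5 the mean difference was 7.08 points for GPR37 and 8 for ATP6V1G3.

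The same limit of 5 kb holds for the 8 largest shared decreases. MRGPRX1 (chr11:18933499-18939414) was covered to 47.5% in sgC ENZA and 29.3% in sgPRKCI ENZA, against 100% in sgC DMSO and 58.7% in sgPRKCI DMSO (difference -41.0 ± 9.06 points, SE, limma adjusted p = 0.697). OR2Z1 (chr19:8721634-8732160) had no cover with ENZA in either guide, against 35.4% and 23.4% with DMSO. LOC102723971 (chr9:135614183-135619893) was covered to 32.4% and 24.1% with ENZA, against 61.4% and 74.2% with DMSO. In each of these 3 genes both ENZA libraries lay below both DMSO libraries. SIGLEC7, an inhibitory receptor of natural killer cells, had 13.1% and 7.52% covered with ENZA, against 36% and 34.9% with DMSO. KRT79 and KRT3 are keratin genes of epithelia that lie close together on chromosome 12. KRT79 had 29.9% and 4.63% covered with ENZA, against 50.5% and 57.2% with DMSO, and KRT3 had 54.6% and 21.3%, against 75.1% and 72.7%. MRGPRF, of the family of MRGPRX1, had 16% and 25.7% with ENZA, against 37.3% and 69.9% with DMSO, and LOC124904950 had 32.1% and 50%, against 59.8% and 73.1%. At equal cover 7 of the 8 were lower in both guides, and OR2Z1 differed by -35.4 points in sgC and by 0 in sgPRKCI, where it had no cover with either treatment. Counted with 5 kb on either side of the gene, the mean difference was -15.1 points for MRGPRX1 and -11.5 for LOC102723971. Olfactory receptor, keratin and MRGPR genes have close relatives in the genome and are reported as uncertain: how reads that map to several places were treated is not given in the sources used here, and its part was not tested.

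**Figure D5:**
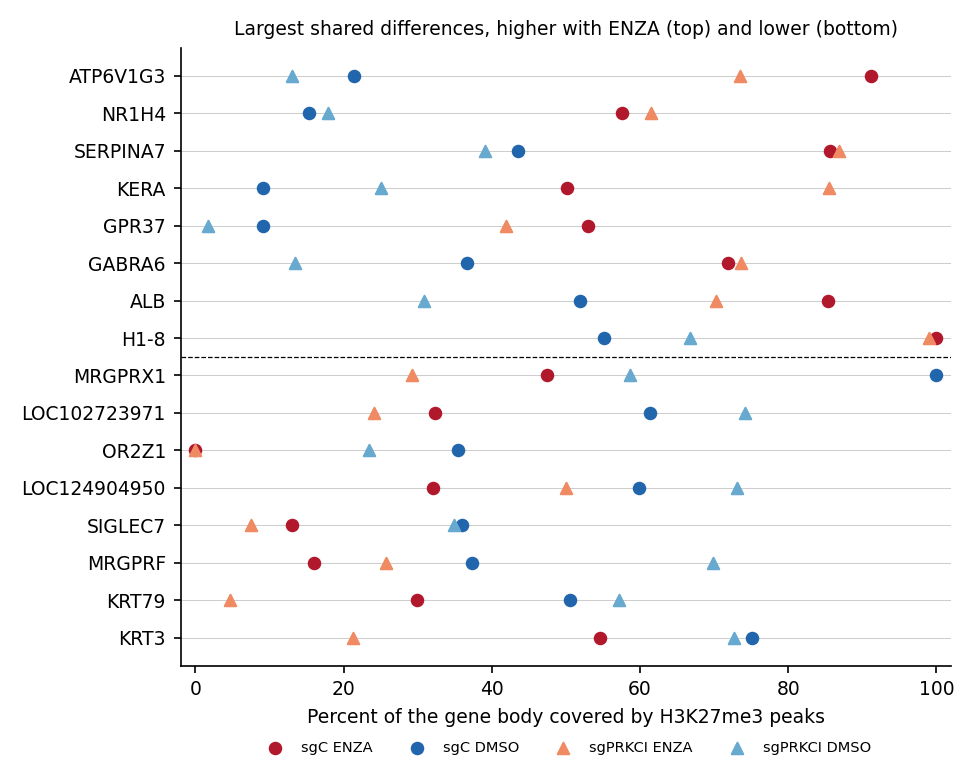
Percent of the gene body covered by H3K27me3 peaks in each of the 4 libraries for the 8 genes with the largest shared gain (above the dashed line) and the 8 with the largest shared decrease (below it), by the smaller of the guides' differences. The ENZA points of each gene lie on the same side of its DMSO points in both guides, by the choice of the genes.

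Gene groups were read against the 6.64% of tested genes with a shared gain and the 1.45% with a shared decrease, and no member of any group passed limma. Over all tested genes the median difference was 3.25 points in sgC and -0.03 in sgPRKCI. At equal cover 3.63% of 3940 tested genes had a shared gain and 5.03% a shared decrease, with medians of 0.0 and -0.39 points. Of cadherins and other neuronal adhesion genes, 7 of 29 tested had a shared gain and 0 a decrease, with medians of 8.08 and 3.52 points. At equal cover 1 of 28, CDH7, had a shared gain. Among them CDH7 was covered to 57.3% and 54.4% with ENZA, against 24.6% and 35.3% with DMSO, and CNTN5, a contactin gene of 1337937 bp, to 22.8% and 21.8%, against 4.99% and 6.46%. Glutamate and GABA receptor genes had 6 shared gains among 37 tested, with medians of 8.24 and 1.75 points, GABRA6 and GABRB2 being neighbours on chromosome 5, and 4 of 34 at equal cover. GABRA4 was covered to 27.8% and 27.1% with ENZA, against 6.24% and 10.5% with DMSO. Potassium, sodium and calcium channel genes had 7 of 89, a share of 7.87%, close to that of all genes. Their medians were 3.94 and -3.0 points, and at equal cover they had 4 gains and 3 decreases among 87. Of these, SCN2A, SCN3A and SCN9A are sodium channel genes of 1 cluster on chromosome 2, and SCN2A was covered to 40.6% and 38.5% with ENZA, against 9.25% and 14.7% with DMSO.

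Classical Polycomb targets fell into covered and uncovered members: 17 of 39 HOX genes, 32 of 95 homeobox and T-box factors and 32 of 71 forkhead, GATA and SOX factors had no cover in any library, and the values below are of the tested members. Clustered protocadherins had 0 shared gains and 0 decreases among 53 tested, with a median cover of 61.9% in sgC ENZA and 62.2% in sgPRKCI ENZA, against 59.5% in sgC DMSO and 64.6% in sgPRKCI DMSO. HOX genes, which set position along the body axis, had 3 shared gains among 19 tested (HOXB7, HOXD13 and HOXA3), with medians of 8.26 and 0.0 points. Their median cover was 82.0% and 74.2% with ENZA, against 59.9% and 80.9% with DMSO, so the groups overlapped. At equal cover the same 3 of 18 had a shared gain. HOXA3 was covered to 32.1% and 28.1% with ENZA, against 2.79% and 10.8% with DMSO, and HOXD13 to 93.4% and 66.9%, against 59.9% and 52.7%. Developmental homeobox and T-box factors had 3 of 53 (VAX1, TBX2 and PAX3), a share of 5.66%, and medians of 2.11 and 0.0 points, and at equal cover PAX3 alone of 50. PAX3, a neural crest and muscle factor, was covered to 69.7% and 63.6% with ENZA, against 27.9% and 41.8% with DMSO. Forkhead, GATA and SOX factors had 4 of 33 (SOX2, FOXP2, GATA1 and FOXR2) and 1 decrease, GATA5, with medians of 2.32 and 0.0 points. At equal cover 2 of 32, SOX2 and FOXR2, had a gain and GATA5 a decrease. GATA5 was covered to 27.6% and 50.5% with ENZA, against 45.2% and 67.7% with DMSO.

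Lineage and growth control genes gave small counts. The CDK inhibitor and tumour suppressor list had 3 shared gains among 7 tested, the other 14 of its 21 members having no cover. CDKN2A, which encodes p16 and p14ARF, was covered to 47.3% in sgC ENZA and 46.4% in sgPRKCI ENZA, against 15.0% in sgC DMSO and 14.5% in sgPRKCI DMSO (difference 32.1 ± 6.56 points, limma adjusted p = 0.697). Its neighbour CDKN2B, which encodes p15, was covered to 40.8% and 40.1% with ENZA, against 15.4% and 17.2% with DMSO, and SLIT2, an axon guidance ligand, to 52.4% and 39.2%, against 27.8% and 28.5%. Both CDKN2 genes carried H3K4me3 in all 4 conditions, and both had a shared gain at equal cover. Neuroendocrine and neural lineage genes had 3 of 24, SOX2 and STMN2 among them, with medians of 6.23 and 0.0 points. SOX2, a stem cell and neural factor, was wholly covered with ENZA (100% in both guides), against 81.9% and 71.4% with DMSO. Basal and mesenchymal genes had 2 of 18, LOX and COL1A2, with medians of 7.61 and 0.0 points, and at equal cover LOX alone. LOX, lysyl oxidase, was covered to 56.7% and 34.2% with ENZA, against 22.5% and 16.6% with DMSO.

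Matrix, signalling and sensory groups varied. Collagens had 4 of 29, with medians of 5.12 and -0.89 points. At equal cover they had 3 gains and 1 decrease, COL5A3, among 25, with medians of -0.32 and -0.78 points. COL9A1 was covered to 75.4% and 71.6% with ENZA, against 41.7% and 52.2% with DMSO. WNT ligands and antagonists had 2 of 17, WNT16 and the antagonist SFRP4, with medians of 3.55 and -0.73 points. At equal cover the same 2 of 16 had a gain and WNT7A a decrease (1 gene), with medians of 2.15 and -3.04 points. SFRP4 was covered to 37.2% and 64.2% with ENZA, against 7.41% and 15.1% with DMSO. Olfactory receptors had 17 shared gains and 4 decreases among 123 tested, with medians of 7.06 and 0.0 points. At equal cover the balance turned, with 2 gains and 10 decreases among 89. Of the gains, noticed after the values were seen, OR5H1, OR5H14, OR5H15, OR5K1 and OR5K4 lie together on chromosome 3, and all 4 decreases (OR2Z1, OR1M1, OR7E24 and OR7D4) lie on chromosome 19. OR5H1 was covered to 36.1% in both ENZA libraries, against 3.55% in sgC DMSO and 13.0% in sgPRKCI DMSO. Keratins and keratin-associated proteins had 3 gains and 3 decreases among 34 tested, with medians of 0.86 and -2.11 points, and 2 gains and 6 decreases among 28 at equal cover. Zinc finger genes had neither among 26 tested, 465 of 509 having no cover, with medians of 2.45 and -0.4 points. At equal cover they had 0 gains and 1 decrease among 22.

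Several other gene groups had few members with cover, to be read beside 14227 of all 20033 protein-coding genes without cover in any library. The interferon and antigen presentation list lay nearest to that share. No cover lay on any of 81 cytosolic ribosomal protein genes, on 38 of 40 androgen response genes, on 36 of 38 cell cycle genes, on 34 of 41 interferon and antigen presentation genes or on 33 of 36 members of the Polycomb complexes list, in any library. The androgen-driven genes KLK3, KLK2, TMPRSS2 and FKBP5 were at 0% in all 4 libraries, as were EZH2 and the androgen-inactivating enzyme genes UGT2B15 and UGT2B17. The androgen response gene tested was MAF, with 10.4% and 3.34% covered with ENZA, against 6.31% and 4.85% with DMSO. BMI1, a Polycomb repressive complex 1 subunit, had 23% and 4.91% covered with ENZA, against 4.13% and 0.0% with DMSO. NR3C1, the glucocorticoid receptor gene, had 80.0% and 77.4%, against 71.7% and 75.5%, and CACNA1E, a calcium channel gene, had 17.9% and 11.8%, against 13.3% and 17.4%. Of the markers of other cell types, 8 were tested and 3 had a shared gain, ALB, PTPRC and GATA1. PTPRC, the leukocyte antigen CD45, was covered to 51.1% and 31.3% with ENZA, against 9.66% and 10.9% with DMSO.

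At gene starts the treatments overlapped in the lists as deposited. Within 1 kb of the start, 2170 genes had H3K27me3 in sgC ENZA and 1903 in sgPRKCI ENZA, against 1999 in sgC DMSO and 2124 in sgPRKCI DMSO, of 15842 genes with a RefSeq start. The count was higher with ENZA in sgC and lower in sgPRKCI. Starts marked in both ENZA libraries and in neither DMSO library numbered 54, the reverse 51, and starts marked in all 4 numbered 1572. At equal cover fewer starts were marked with ENZA in both guides, 1591 and 1508 against 1999 and 1746 with DMSO, and 13 were marked in both ENZA libraries alone, against 143 in both DMSO libraries alone. That setting compares wider ENZA peaks with a whole or less trimmed DMSO list. The part of peak number and width in these counts was not tested. Median promoter CpG was 14.5 and 10.0 for the first pair and 18 for the last, as deposited.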

How the data were processed

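H3K27me3 peaks of 4 LNCaP libraries, 1 per guide and treatment, were compared within each guide; the groups are those of the labels for antibody, guide and treatment. The submitters' processing notes name FastQC, Trimmomatic, Bowtie2, SAMtools and MACS2 with the build GRCh38; their versions and parameters are not given. The authors deposited broad peaks called for each library alone, and every peak has a score, a −log10 p, a −log10 q and a fold enrichment ratio, all of them the authors' values. Read totals were not used, and the protocol's spike-in was not used. Background coverage, the measure of depth here, was solved from the deposited fold and −log10 p values of short weak peaks and tested on simulated data. The simulated peaks followed the formula that was solved. Deposited values of broad peaks are means over a region, so the background coverage is an approximation. The lowest −log10 q was 1.00 to 1.02 in the 4 lists, so sequence without a peak is sequence where none reached that limit. The EZH2 and H3K4me3 lists, 1 per condition, are narrow peaks.

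Peaks outside chromosomes 1 to 22, X and Y (2.39% to 2.63% of each list) were left out. Bases under merged peaks were counted over chromosomes, 1 Mb bins, RefSeq protein-coding genes (GRCh38.p14) and domains. Percent cover was tested with limma 3.58.1 in R 4.3.3 (trend, guide as a block, Benjamini-Hochberg over all features, threshold 0.05). The test was checked on simulated gene values with independent noise, smaller than the standard error of most named genes. Domains were not simulated, so the check does not bear on the domain calls. The other values come from Python 3.11.15 with numpy 2.4.6, pandas 2.3.3 and scipy 1.17.1 and carry no test: exact permutation of treatment within 2 guides cannot go below p = 0.5, two-sided. Differences have no replicate check within a guide.

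Named genes span at least 5 kb: the 8 largest shared gains and 8 largest decreases by the smaller of the guides' differences, the 3 most opposite in each direction, up to 2 members per gene list by mean difference, and genes fixed by name, with domains (4 each way) and promoters (3 each way) by the same ranking. Other list members named in the text were chosen after their values were seen. Members, lists and tests were chosen with earlier results of these data known. Of the Polycomb list, 1 name did not match the annotation. Sequences came from the RefSeq promoter table, which holds 15842 of 20033 genes. Alternatives were a −log10 q of at least 2, equal numbers of peaks, equal cover, gaps of 1 kb closed, other gene windows, scales, filters and domain gaps, no block, and each guide alone. Some genes are not reported here.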

Additional observations from a re-analysis of the deposited data

Results flagged for a closer look

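The following values differed in direction between the guides, with 1 library per condition, and the difference itself was not tested. On chromosome 16 cover was 1.62 Mb lower with ENZA in sgPRKCI (-1.62 Mb) and 1.42 Mb higher in sgC. In sgPRKCI the ENZA minus DMSO difference was -1.02 Mb on chromosome 17, -1.22 Mb on chromosome 19, -0.995 Mb on chromosome 20, -0.927 Mb on chromosome 22 and -0.0517 Mb on chromosome Y. In sgC the same chromosomes had 1.24, 0.460, 1.61, 0.428 and 0.235 Mb more with ENZA. Total cover with ENZA was 1.51 times that with DMSO in sgC and 1.07 times in sgPRKCI, and at equal cover 11 chromosomes had more cover in both guides and 12 less.

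Among genes, FPR2, a formyl peptide receptor of neutrophils, was covered to 79.7% with ENZA, against 47.6% with DMSO, in sgC and to 42.3%, against 80.0%, in sgPRKCI, a difference there of -37.6 points. MS4A6A differed by 28.2 points in sgC and -24.2 points in sgPRKCI, and the olfactory receptor gene OR2AT4 by 23.5 and -33.5 points. In the other direction, CD93 differed by -22.3 points in sgC and 24.3 in sgPRKCI, LOC124903671 by -22.5 and 20.3, and the hair keratin gene KRT85 by -21.9 and 14.5. These 6 were the most opposite in each direction, so their opposite signs follow from the choice. At equal cover FPR2, MS4A6A, OR2AT4 and KRT85 were lower in both guides, while CD93 and LOC124903671 kept opposite signs.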

How the results depend on the processing

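Of 179 values recomputed, 103 kept their direction and size class, 76 moved and 0 reversed. Many are counts, megabases or shares that cannot be negative, so they could not reverse. The balance of genes higher and lower in both guides, 303 and 66, turned to 143 and 198 at equal cover and stands there as moved. Settings that keep a fold of at least 3.5 or that apply equal cover to chromosomes, peak joining, other marks, gene starts or gene groups, and the share measures, were chosen after seeing the data. For the 16 genes with the largest shared differences, 73 of 73 means over the guides kept their sign. These genes were picked for large differences and recounted from the same peak lists, so the choice favours a kept sign. Of the means, 17 were smaller by over 1.5 times (SERPINA7 2.09 at equal cover) and 5 were larger by as much. Another 7 could not be had because the gene fell under the cover minimum. At equal cover the guides went opposite ways in SERPINA7 and KERA. No replicate number pairs the libraries: the guide is the block, and without that block limma called 0 genes (lowest adjusted p 0.059) and 0 domains higher and 0 lower (lowest 0.216), in place of 793 and 7. With gaps of 20 kb, domains called were 302 higher and 3 lower, and at a fold of at least 3.5 they were 315 and 17; at equal cover 163 were called lower. Domains higher by 10 points in both guides (3839) numbered 1447 with 20 kb gaps, 1901 at equal cover and 1566 at that fold; domains lower (270) numbered 40, 1538 and 654, and 516 at a −log10 q of at least 2. Genes higher (303) numbered 143 at equal cover and 157 at that fold; genes lower (66) numbered 198 at equal cover and 37 with 5 kb flanks. In sgC alone 1137 genes and 8685 domains were 10 points higher and 128 genes lower; in sgPRKCI alone 594 genes and 2914 domains were lower. Chromosomes with more cover in both guides numbered 11 at equal cover in place of 18. As means of the guides, the share on gene-rich chromosomes differed by -3.99 points, -3.38 at equal cover and -4.73 at that fold; the share in deserts by 3.52 points, 3.28 at the stricter q, 1.95 at equal cover, 2.41 at that fold and 3.27 with deserts of 1 Mb. Added bases in deserts (39.0%) were 26.8% with 1 Mb deserts and 34.4% at that fold; those within 1 kb of DMSO cover (58.5%) were 37.9% at the stricter q and 25.7% at that fold. Shared added cover (28.4 Mb) was 22, 29.7, 13.8, 25.5 and 13.0 Mb, and shared lost cover (6.22 Mb) 4.82, 5.00, 11.5, 7.08 and 5.59 Mb, at the stricter q, with equal peak numbers, at equal cover, with 1 kb gaps closed and at that fold. Depth, which as recovered moves with the drug, limits all totals, and the cause of these moves was not tested.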
